A study of Mus musculus with 2 samples.

Results

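Type 1 conventional dendritic cells (cDC1) of the mouse cecum were the 163 cells, among 19571 cells kept from 23063 barcodes, that carried the paired surface receptors of this lineage in their RNA and held little or no RNA of genes that mark macrophages, B cells and T cells. The cells were chosen by measured counts. A barcode needed at least 500 unique molecular identifiers (UMIs, each standing for 1 captured RNA molecule), at most 10% mitochondrial UMIs, and a top hashtag count of at least 10 that was at least 3 times the next. It then needed at least 2 UMIs of Xcr1 and Clec9a together, fewer than 5 UMIs of C1qa, C1qb and C1qc together, and none of Cd79a, Cd3e, Cd3d or Cd3g. The rule left 36 and 34 cDC1 in the 2 Trpv1-ADC mice, against 39 and 54 cDC1 in the 2 CTRL mice.

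The study profiled CD45+ immune cells of the cecum by droplet single-cell RNA sequencing, to ask how they differ once neurons that carry the heat and capsaicin channel Trpv1 are activated. The Trpv1-ADC group and its littermate CTRL group each held 2 male mice, aged 101 days. Both groups carry the same strain label, Trpv1-WT.B6 and Trpv1-Cre.B6, which does not say which mouse was which, and the same treatment label, an adeno-associated virus given intraperitoneally to newborns followed by CNO injected 7 times, every other day. CNO is a ligand of engineered receptors, and the cargo of the virus is not given in the sources used here. Cells were released with dispase and collagenase II, sorted, tagged and run together in a single droplet run, and the samples are single mice. Whether tissue handling before the cells were pooled differed between mice is not given in the sources used here.

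cDC1 are a rare dendritic cell lineage that depends on the transcription factors Irf8 and Batf3. They take up dying cells through Clec9a and present the cargo to CD8+ T cells on class I molecules, and Xcr1, the receptor for the chemokine Xcl1 made by T and NK cells, brings them close to those cells. In the intestine most of them carry CD103, the integrin chain encoded by Itgae, and on maturation they take on Ccr7, move to lymph nodes and can secrete the p40 subunit of interleukin-12, encoded by Il12b.

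The barcode sequences of the anti-CD45 hashtags are shown because they alone tie a cDC1 to its mouse. They were read from the labels as follows.
Trpv1-ADC mouse 1: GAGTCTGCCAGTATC
Trpv1-ADC mouse 2: TGCCTATGAAACAAG
CTRL mouse 1: ACCCACCAGTAAGAC
CTRL mouse 2: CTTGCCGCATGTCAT
The median count of a cDC1's own tag was 284 and 496 in Trpv1-ADC mice, against 1528 and 698.5 in CTRL mice. On the cDC1 of the other 3 mice the same tags had medians of 5 and 9 counts for the Trpv1-ADC tags, against 20 and 13 for the CTRL tags. At the median the margin was wide for all 4 tags, and the tags of CTRL mice had more counts. The ranges of the Trpv1-ADC tags overlapped. Their lowest own counts were 62 and 50, and their highest counts on cDC1 of other mice 369 and 289. For the CTRL tags the lowest own counts were 408 and 238, and the highest on other mice 127 and 195. Within each cell the top tag was at least 3 times the next, by the rule.

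The cDC1 were deeply sampled cells. Their summed UMIs came to 594415 and 556619 in Trpv1-ADC mice, against 564925 and 910494 in CTRL mice. The median cDC1 held 15955.5 and 16632 UMIs in Trpv1-ADC mice and 15071 and 16541.5 UMIs in CTRL mice, while the median over all kept cells lay between 5671 and 5979 UMIs in the 4 mice. Each cDC1 had a median of 3794.5 and 3810.5 detected genes in Trpv1-ADC mice, against 3489 and 3604 in CTRL mice. Below, a level is given as CPM, the UMIs of a gene among a mouse's summed cDC1 UMIs when these are scaled to 1000000. In such sums, fewer cells that express a gene and less RNA of it per cell cannot be told apart. At these depths 3 counts in 1 mouse correspond to between 3.295 and 5.39 CPM, and counting intervals cover counting error only.

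The label of the cells was borne out by markers that the gate did not use. Beside Xcr1 and Clec9a, the other 13 genes of the cDC1 marker list were detected. Cadm1, an adhesion molecule of the lineage, stood at 524.7 CPM in cDC1 and at 11.84 CPM in cDC2-gated cells, the other conventional dendritic lineage. Naaa, a lysosomal amidase, stood at 736.4 CPM in cDC1 and 166.3 CPM in cDC2-gated cells. Irf8, which the lineage needs throughout life, reached 1146.0 CPM, Wdfy4, required for cross-presentation, 1109.5 CPM, and Tlr3, a sensor of double-stranded RNA, 94.04 CPM. Sirpa, the receptor that marks cDC2, was at 15.61 CPM in cDC1 and 251.8 CPM in cDC2-gated cells. Of T-gated cells, 0.713% held an Xcr1 UMI and 0.966% a Clec9a UMI, with up to 15 and 11 UMIs in a cell. The T gate took cells with a Cd3 UMI and no Cd79a UMI. It therefore includes the 77 cells that Cd3 alone kept out of cDC1, of which 97.4% held a Naaa UMI and 79.2% a Cadm1 UMI. These shares are thus no measure of background. Free RNA, doublets and such cells were not told apart in them.

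Apart from the gate genes, the genes that stood highest in cDC1 over the next gated class of at least 50 cells were led by Gpr141b (28.9-fold), a G protein-coupled receptor gene, and included Gcsam (14.4-fold), P3h2 (13.2-fold), Tlr3 (11.5-fold) and Septin3 (9.29-fold). Cadm1 stood 7.15-fold, P2ry14, a receptor for UDP-sugars, 6.81-fold, and Ifi205 6.75-fold above the next class. The plasmacytoid dendritic cell gate, with 15 cells, was left out of this comparison by its size. Cadm1 stood at 167.4 CPM in it, against 524.7 CPM in cDC1. Cst3, encoding the protease inhibitor cystatin C, stood at 15429.2 CPM, 5.48-fold above the next class. These values describe gated cells and carry no test.

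**Figure D1:**
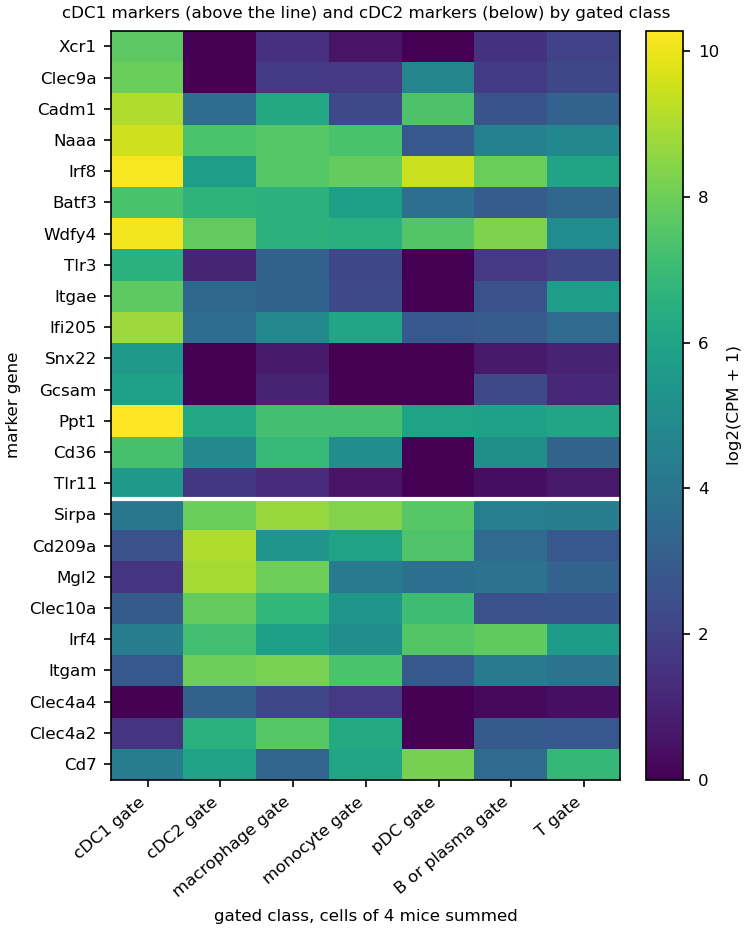
Levels, as log2(CPM + 1) by colour, of 15 cDC1 markers (rows above the line) and 9 cDC2 markers (rows below it) in gated classes (columns), summed over the 4 mice. Xcr1 and Clec9a set the gate, so their place was fixed by the rule. The cDC1 column also holds the highest level of Cadm1 and Naaa, with Cadm1 at 524.7 CPM in cDC1 against 11.84 CPM in cDC2-gated cells.

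Marker levels were graded across the edge of the gate. The 49 cells with exactly 1 Xcr1 or Clec9a UMI, just outside, had 131.8 CPM of Cadm1, 120.2 CPM of Naaa and 99.4 CPM of the cDC2 marker Sirpa. The 20 cells with exactly 2, just inside, had 356.8 CPM of Cadm1, 621.6 CPM of Naaa and 72.9 CPM of Sirpa. The 19 cells with 3 had 280.5 CPM of Cadm1, 680.7 CPM of Naaa and 48.62 CPM of Sirpa. In the 80 cells with 4 to 9 gate UMIs Sirpa stood at 4.79 CPM and Cadm1 at 408.8 CPM. Among the 44 cells with 10 or more gate UMIs, Cadm1 reached 825 CPM. Both gate genes were seen in 129 of the 163 cells. Xcr1 without Clec9a was seen in 6 cells, and Clec9a without Xcr1 in 28. A cDC1 held a median of 4 and 6 gate UMIs in Trpv1-ADC mice, against 7 and 7 in CTRL mice.

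Of the limits on RNA of other cell types, that on Cd3 left out the most cells. Of 263 kept cells with at least 2 Xcr1 or Clec9a UMIs, 77 were left out by Cd3 UMIs alone, 12 and 21 of them from Trpv1-ADC mice and 30 and 14 from CTRL mice. Their median depth was 22302 UMIs and 31 of them held exactly 1 Cd3 UMI. The doublet caller Scrublet marked 35.1% of them, against 10.4% of the cDC1. Cd79a alone left out 10 cells and C1q alone 1 cell. The gene calls that are lost when these cells are taken back are given with the gene comparison.

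Some markers of other cell types were detected in cDC1, and several of their sums were higher in both Trpv1-ADC mice. Cd3d, Cd3e, Cd3g, Cd79a, Mzb1, Eomes, Retnlg, Hba-a1, Cpa3 and Clec4a4 were at 0 in all 4 mice, the Cd3 genes and Cd79a through the gate. Of 7 T cell markers 4 were detected and summed to 26.92 and 98.81 CPM in Trpv1-ADC mice, against 54.87 and 46.13 CPM in CTRL mice. All 9 stromal and epithelial markers were detected, and their sum was 964 and 380.9 CPM in Trpv1-ADC cDC1, against 200 and 186.7 CPM in CTRL cDC1. All 7 markers of plasmacytoid dendritic cells were detected, and summed to 852.9 and 806.7 CPM in Trpv1-ADC mice and 417.8 and 411.9 CPM in CTRL mice. Of these, Bst2 was seen in 79.1% of cDC1 and Tcf4 in 55.8%. Monocyte markers, 6 of 6 detected, summed to 979.1 and 1245.0 CPM in Trpv1-ADC mice, against 816 and 821.5 CPM in CTRL mice. Most of that sum was Plac8, seen in 92.6% of cDC1, at 639.3 and 837.2 CPM in Trpv1-ADC mice and 518.7 and 694.1 CPM in CTRL mice, with overlap. Whether such widespread RNA was the cells' own was not tested. Macrophage markers, 10 of 10 detected, summed to 230.5 and 177.9 CPM in Trpv1-ADC mice, against 143.4 and 150.5 CPM in CTRL mice. Markers of NK and innate lymphoid cells, 6 of 7 detected, summed to 107.7 and 66.47 CPM in Trpv1-ADC mice, against 44.25 and 46.13 CPM in CTRL mice. The part of these RNAs in the gene results was not tested, except for the stromal RNA. The stromal RNA sat in few cells. Only 13 of the 163 cDC1 held 5 or more UMIs of Col1a1, Col1a2, Col3a1, Dcn and Pecam1 together, 5 and 3 in Trpv1-ADC mice and 2 and 3 in CTRL mice.

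No difference in the abundance of cDC1 was detectable over the spread between mice. They made up 0.757% and 0.674% of kept cells in Trpv1-ADC mice, against 0.762% and 1.16% in CTRL mice. The exact 95% Clopper-Pearson intervals of these shares ran from 0.531% to 1.05% and from 0.468% to 0.941% in Trpv1-ADC mice, against 0.542% to 1.04% and 0.873% to 1.51% in CTRL mice. Both Trpv1-ADC values lay below both CTRL values, but the CTRL mice differed more from each other than the groups did. The mean share was 0.716% ± 0.058 in Trpv1-ADC and 0.961% ± 0.282 in CTRL mice (SD, n = 2 each), a difference of -0.246 percentage points. The two-sided exact permutation p was 0.333, the smallest that 2 mice against 2 can give. Across the gated classes, edgeR's quasi-likelihood test on cell numbers gave cDC1 a log2 fold change of -0.42 ± 0.28 (SE) with a Benjamini-Hochberg adjusted p of 0.286.

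Of the conventional dendritic cells, cDC1 and cDC2-gated cells together, cDC1 were 48% and 54.0% in Trpv1-ADC mice, against 39% and 55.1% in CTRL mice, and the groups overlapped. The difference of the means was 3.93 percentage points (exact permutation p = 1, two-sided). Without CTRL mouse 1 the difference turned to -4.12 percentage points.

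The share of mature cDC1, cells with at least 2 UMIs of Ccr7 and Fscn1 together, was 11.1% and 14.7% in Trpv1-ADC mice, against 10.3% and 12.96% in CTRL mice. Cycling cDC1, cells with at least 2 UMIs of the proliferation genes Mki67 and Top2a together, made up 19.4% and 17.6% in Trpv1-ADC mice and 15.4% and 27.8% in CTRL mice. Cells with an Itgae UMI were 66.7% and 70.6% of cDC1 in Trpv1-ADC mice, against 69.2% and 74.1% in CTRL mice. In each of these measures the groups overlapped, and the exact two-sided permutation p was 0.667, 1 and 0.667 for the mature, cycling and Itgae shares. Itgae set the lineage apart from cDC2 in this tissue, with a UMI in 70.6% of cDC1 at a median of 16150 UMIs and in 6.36% of cDC2-gated cells at 9792 UMIs. T-gated cells, many of which express Itgae, stood at 18.3%. In cells thinned to 2000 UMIs each, the Itgae share was 27.6% of cDC1 and 0.585% of cDC2-gated cells.

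**Figure D2:**
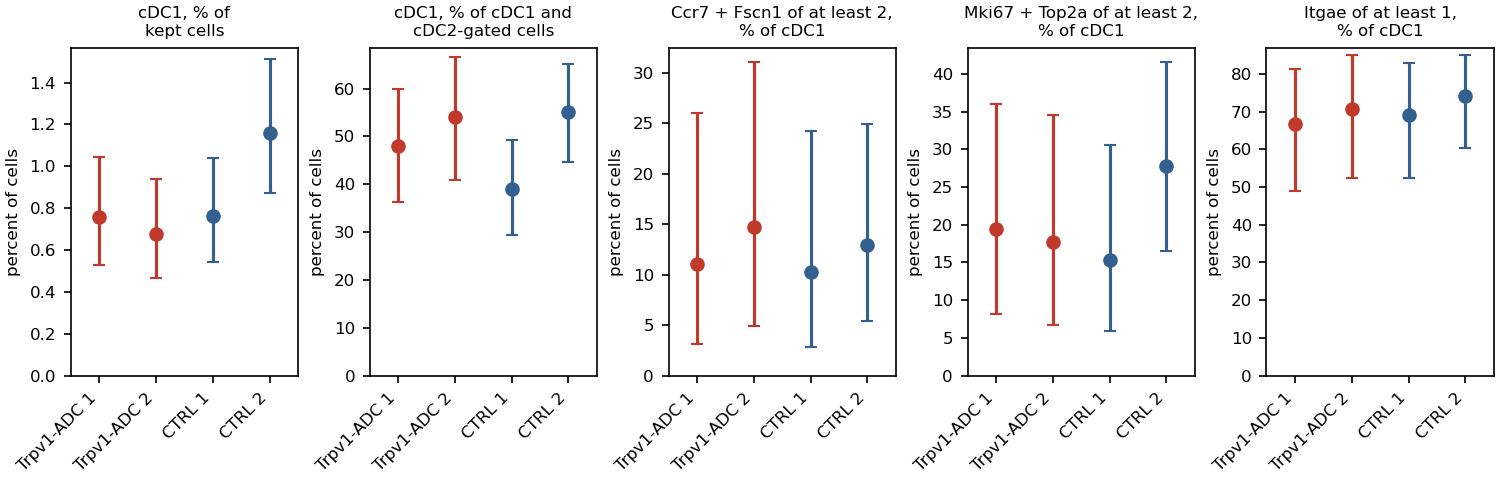
Shares of cDC1 (percent, vertical axes) in each mouse, Trpv1-ADC left of CTRL, with points for mice and error bars for exact 95% Clopper-Pearson intervals (counting error only). The cDC1 share of kept cells was 0.757% and 0.674% in Trpv1-ADC mice and 0.762% and 1.16% in CTRL mice.

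Some genes were carried by few cDC1. With each of 155 cells thinned to 5000 UMIs, the median ratio of variance to mean over 1544 genes was 1.42. Il12b reached 25.8 and was seen in 9.68% of the thinned cells. Unthinned, Il12b was seen in 5 and 5 cells of Trpv1-ADC mice and in 4 and 8 cells of CTRL mice. The chemokine gene Cxcl9, whose product draws in Cxcr3+ T cells, was held by 12 and 14 cells of Trpv1-ADC mice, against 12 and 22 of CTRL mice. A sum over the cells of a mouse can then be set by 1 cell, and the cells behind such values are given for several genes below.

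Gene levels in cDC1 were compared between the groups on the summed counts of each mouse with edgeR's quasi-likelihood test. Of 6411 genes tested, 95 passed a Benjamini-Hochberg adjusted p of 0.05, which is 1.48%, with 39 higher (0.608%) and 56 lower (0.873%) in Trpv1-ADC mice. The raw p was under 0.05 for 750 genes. With 1 mouse left out, which leaves a lone mouse assumed to vary like the others, the number called was 99 without Trpv1-ADC mouse 1, 250 without Trpv1-ADC mouse 2, 243 without CTRL mouse 1 and 333 without CTRL mouse 2. Both Trpv1-ADC mice were apart from both CTRL mice in all 95 called genes and in 41.6% of all genes tested. The median log2 fold change over all genes was -0.01. With 2 mice a group, the p-values measure the spread between these 4 mice. The genes that rose included 6 heat shock genes, and those that fell included the costimulatory ligands Cd80 and Cd83, the cytokine receptor chain Csf2rb and the lineage's adhesion molecule Cadm1. Among the 39 higher genes, 13 stood at least 10 times higher in stromal-gated cells than in cDC1, and none of the 56 lower genes did.

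Of the alternatives run, dropping the Cd3 and Cd79a limits left the fewest calls. With the cells those limits left out taken back, 13 of 8980 tested genes were called and 654 had a raw p under 0.05, and 12 of the 95 genes were among the 13. The calls of Hspa1a, Hspa1b, Hsph1, Bag3, Cd80, Csf2rb, Ncoa7, Scin and Tnfaip2 were kept there and under all other alternatives run. Cadm1 then had a log2 fold change of -0.70 (adjusted p = 0.406 by edgeR), Cd83 of -0.80 (0.0869), Nr4a2 of -1.15 (0.051), Hsp90aa1 of 0.65 (0.157), Jun of 0.89 (0.737) and Areg of 0.87 (0.66). The adjusted p by edgeR was then 0.355 for Nr4a3, 0.323 for Il12b, 0.566 for Ccr7, 0.496 for Cxcl16, 0.287 for Ccl4, 0.406 for Klf2, 0.611 for Ifi27l2a, 0.794 for Ube2c, 0.677 for Ccnb2, 0.433 for Gm16124 and 0.406 for Xcl1. Except for Gm15506, the other called genes named below lost their calls there too, with adjusted p between 0.0738 (Snx24) and 0.998 (Adarb1 and Ccl11). Of the 95 genes 5 had the opposite sign.

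Of the markers of the lineage tested, Cadm1 was called. Its level was 334.8 and 287.4 CPM in Trpv1-ADC mice, against 685 and 694.1 CPM in CTRL mice. Both Trpv1-ADC values were well below both CTRL values. Cadm1 fell by 1.22 on the log2 scale (SE 0.175; edgeR's quasi-likelihood test, adjusted p = 0.00472). A Cadm1 UMI was present in 63.9% and 55.9% of Trpv1-ADC cDC1, against 82.1% and 88.9% of CTRL cDC1, and in 1.96% of T-gated cells. The gate itself touches this gene, since cells with more gate UMIs held more Cadm1 and the median number of gate UMIs was lower in Trpv1-ADC mice. The part of gate strength in the difference was not tested beyond raising the gate to 3 UMIs, where Cadm1 was still called.

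The other defining genes gave no call. Naaa stood at 765.5 and 799.5 CPM in Trpv1-ADC mice, against 704.5 and 698.5 CPM in CTRL mice (log2 fold change 0.09, adjusted p = 0.902 by edgeR's quasi-likelihood test). Irf8 stood at 1189.4 and 1315.1 CPM in Trpv1-ADC mice and 1086.9 and 1051.1 CPM in CTRL mice (0.16, adjusted p = 0.76 by edgeR). Batf3 stood at 195.1 and 186.8 CPM in Trpv1-ADC mice, against 131 and 141.7 CPM in CTRL mice (0.41, adjusted p = 0.489 by edgeR). The full cDC1 marker list, Cadm1 and the gate genes included, summed to 5945.3 and 6577.2 CPM in Trpv1-ADC mice and 6512.4 and 6601.9 CPM in CTRL mice. Of the 14 transcription factors and growth factor receptors of the lineage, all tested, 1 rose, Bcl11a, a zinc finger factor needed for lymphoid and plasmacytoid dendritic development. It had 82.43 and 141.9 CPM in Trpv1-ADC mice, against 33.63 and 45.03 CPM in CTRL mice, a log2 fold change of 1.41 (edgeR, adjusted p = 0.0495). Without Trpv1-ADC mouse 2 it was 0.93 with an adjusted p of 0.254, and the call was lost under 10 of the 17 alternatives run. Bcl11a is also a gene of plasmacytoid dendritic cells, whose markers were higher in the same mice, and the part of such RNA in its change was not tested. The list's median log2 fold change was 0.23.

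Of the 14 heat shock genes of the list, mostly molecular chaperones and all tested, 6 rose and 0 fell, and all 14 had a log2 fold change above 0, with a list median of 0.91. Hspa1a, an inducible chaperone of the Hsp70 family, had 2831.4 and 2669.7 CPM in Trpv1-ADC mice, against 856.8 and 779.8 CPM in CTRL mice. Its neighbour and near-identical copy Hspa1b had 2722.0 and 2565.5 CPM in Trpv1-ADC mice, against 897.5 and 794.1 CPM in CTRL mice. Both genes were about as high in the 2 Trpv1-ADC mice and about as low in the 2 CTRL mice. The log2 fold change was 1.68 ± 0.13 for Hspa1a (SE; adjusted p = 3.62e-05) and 1.58 ± 0.13 for Hspa1b (SE; adjusted p = 4.74e-05), by edgeR's quasi-likelihood test. Because reads of these copies may be split between them, the value of each alone is uncertain.

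Hsp90aa1, the inducible Hsp90, had 1805.1 and 1970.8 CPM in Trpv1-ADC mice, against 809 and 996.2 CPM in CTRL mice (log2 fold change 0.99, adjusted p = 0.00525 by edgeR). Hsph1, which recharges Hsp70 with nucleotide, had 535 and 594.7 CPM in Trpv1-ADC mice and 159.3 and 254.8 CPM in CTRL mice (1.36, adjusted p = 0.00958 by edgeR). Bag3, a cochaperone of Hsp70 in selective autophagy, had 190.1 and 283.9 CPM in Trpv1-ADC mice, against 70.81 and 76.88 CPM in CTRL mice (1.60, adjusted p = 0.00662 by edgeR). The groups were apart in all 3, as in all 95 called genes and in 41.6% of all genes tested. Dnajb1, the J-domain partner of Hsp70, had 634.2 and 562.3 CPM in Trpv1-ADC mice, against 283.2 and 358 CPM in CTRL mice. It was called by a narrow margin (0.83, adjusted p = 0.0499 by edgeR) and lost the call under 10 of the 17 alternatives run, among them the fit without Trpv1-ADC mouse 1 (0.74, adjusted p = 0.261). The 8 other chaperones, among them the constitutive Hspa8 (0.37, adjusted p = 0.199 by edgeR), were not called. Without the 13 stromal-positive cells, 13 of the list's genes were tested, 5 rose and the median was 0.76.

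The summed RNA of the 14 heat shock genes was higher in Trpv1-ADC mice in every gated class compared. The 14 genes summed to 15595.2 and 16280.4 CPM in Trpv1-ADC cDC1, against 7751.5 and 9289.5 CPM in CTRL cDC1. In each of the 9 gated classes compared, the same sum was higher in both Trpv1-ADC mice than in both CTRL mice. The log2 ratio of the group means was 0.90 in cDC1, 0.71 in cDC2-gated cells, 0.46 in other mature dendritic cells, 0.49 in macrophages and 0.92 in monocytes. It was 1.03 in B and plasma cells, 0.98 in NK cells and innate lymphoid cells, 0.50 in stromal cells and 0.32 in T cells. The margin was narrow in T cells, with 9480.5 and 11862.5 CPM in Trpv1-ADC mice and 7702.0 and 9389.3 CPM in CTRL mice. Single genes did not all follow the sum, and in other mature dendritic cells Hsph1 and Bag3 overlapped between the groups. The groups were apart in 41.6% of all genes tested in cDC1, a share not computed for other classes. Plasmacytoid dendritic cells and neutrophils were not compared. Chaperone and immediate early genes are also known to be induced while tissue is dissociated, and the part of this in the values was not tested.

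**Figure D3:**
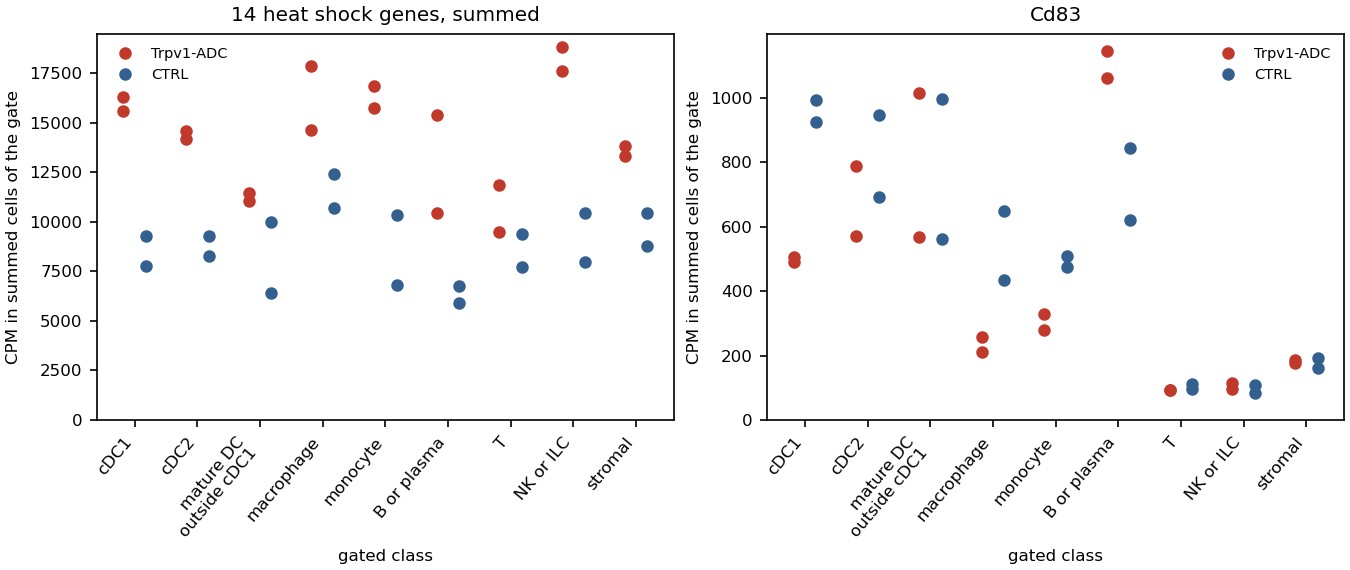
Summed CPM of the 14 heat shock genes (left panel) and CPM of Cd83 (right panel) in 9 gated classes, 1 point a mouse, Trpv1-ADC left of CTRL within each class. The heat shock sum was higher in both Trpv1-ADC mice in every class shown, and in cDC1 it was 15595.2 and 16280.4 CPM in Trpv1-ADC against 7751.5 and 9289.5 CPM in CTRL mice.

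The promoters of the heat shock genes were searched for GAANNTTC, a pair of facing half-sites of the heat shock element, which reads the same on both strands. The window before Hspa1a is shown because this gene had the smallest p of all, with the match in capitals. It covers 250 bases before the RefSeq start site on GRCm38.p6, chr17:34972157-34972406, minus strand, 5′ to 3′.
Hspa1a: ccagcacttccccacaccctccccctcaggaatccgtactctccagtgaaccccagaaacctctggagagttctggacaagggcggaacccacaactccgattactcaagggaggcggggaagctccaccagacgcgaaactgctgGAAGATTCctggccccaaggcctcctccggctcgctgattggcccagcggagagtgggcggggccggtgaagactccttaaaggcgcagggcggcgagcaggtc
The match began 104 bases before the start site. The Hspa1b window, chr17:34959239-34959488 on the minus strand, had the same bases at 247 of 250 positions and a match at the same distance. Of the 11 tested heat shock genes with a window, 6 held a match, and so did 2199 of 32851 windows of this length (6.69%). These are unlike measures, since a gene counted if any of its windows matched, and the near-identical Hspa1a and Hspa1b counted separately. Among the 5 called genes with a window, the match was in Hspa1a and Hspa1b and not in Hsph1, Dnajb1 or Bag3. A match describes letters and not a bound site.

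Costimulatory ligands included 2 clear falls. Of 12 tested costimulators and inhibitory ligands, 2 fell and 0 rose, with a list median of -0.50. Cd80, the B7 ligand of CD28 and CTLA-4, had 92.53 and 89.83 CPM in Trpv1-ADC mice, against 295.6 and 195.5 CPM in CTRL mice. It fell by 1.48 on the log2 scale (edgeR's quasi-likelihood test, adjusted p = 0.00992). Cd83, which holds class II and Cd86 at the cell surface, had 489.6 and 506.6 CPM in Trpv1-ADC mice and 994.8 and 924.8 CPM in CTRL mice. It fell by 1.01 (edgeR, adjusted p = 0.00589). For both, the lowest CTRL mouse was far above the highest Trpv1-ADC mouse. Groups were apart in all 95 called genes and in 41.6% of all genes tested.

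Cd274, encoding PD-L1, had 37.01 and 44.91 CPM in Trpv1-ADC mice, against 122.1 and 77.98 CPM in CTRL mice, and missed the threshold with a log2 fold change of -1.33 (edgeR, adjusted p = 0.052). Havcr2, encoding Tim-3, had 235.5 and 296.4 CPM in Trpv1-ADC mice and 508 and 418.5 CPM in CTRL mice (-0.86, adjusted p = 0.052 by edgeR). Cd86, the second B7 ligand, also missed it (-0.80, adjusted p = 0.089 by edgeR). For Cd274 and Havcr2 the groups did not overlap, as for 41.6% of all genes tested. Cd274 stayed without a call under 13 of the 17 alternatives run, and Havcr2 under 12. Over these alternatives the log2 fold change ran from -1.65 to -0.20 for Cd274 and from -1.08 to -0.64 for Havcr2.

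Of 16 tested cytokine and growth factor receptors 1 fell and 0 rose, while 15 had a log2 fold change below 0 and the list median was -0.39. Csf2rb, the signalling chain shared by the receptors for GM-CSF, interleukin-3 and interleukin-5, had 161.5 and 167.1 CPM in Trpv1-ADC mice, against 623.1 and 394.3 CPM in CTRL mice. It fell by 1.69 (SE 0.235; edgeR's quasi-likelihood test, adjusted p = 0.00459). Its mouse paralog Csf2rb2, specific for interleukin-3, was much lower at 18.51 and 28.74 CPM in Trpv1-ADC mice and 56.64 and 49.42 CPM in CTRL mice (-1.23, adjusted p = 0.148 by edgeR). The copies are alike in sequence, so reads may be split between them. Tnfrsf1a, the main receptor for tumour necrosis factor, had a log2 fold change of -0.89 (adjusted p = 0.139 by edgeR) and stayed without a call under 15 of the 17 alternatives run. In 8 of the 9 gated classes Csf2rb was lower in both Trpv1-ADC mice than in both CTRL mice, the exception being NK and innate lymphoid cells. In cDC1 the groups were apart in 41.6% of all genes tested. Csf2rb was low in T-gated cells, at 10.75 and 15.77 CPM in Trpv1-ADC mice and 26.95 and 20.53 CPM in CTRL mice. It was likewise low in B and plasma cells (15.35 and 13.28 against 41.89 and 28.59 CPM) and in stromal cells (13.54 and 9.202 against 19.47 and 29.66 CPM). In cDC2-gated cells it had 282.8 and 268.6 CPM in Trpv1-ADC mice and 385.5 and 549.2 CPM in CTRL mice. The log2 ratio of the group means in those 8 classes ran from -1.63 in cDC1 to -0.36 in monocytes, with no test outside cDC1 and cDC2-gated cells.

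**Figure D4:**
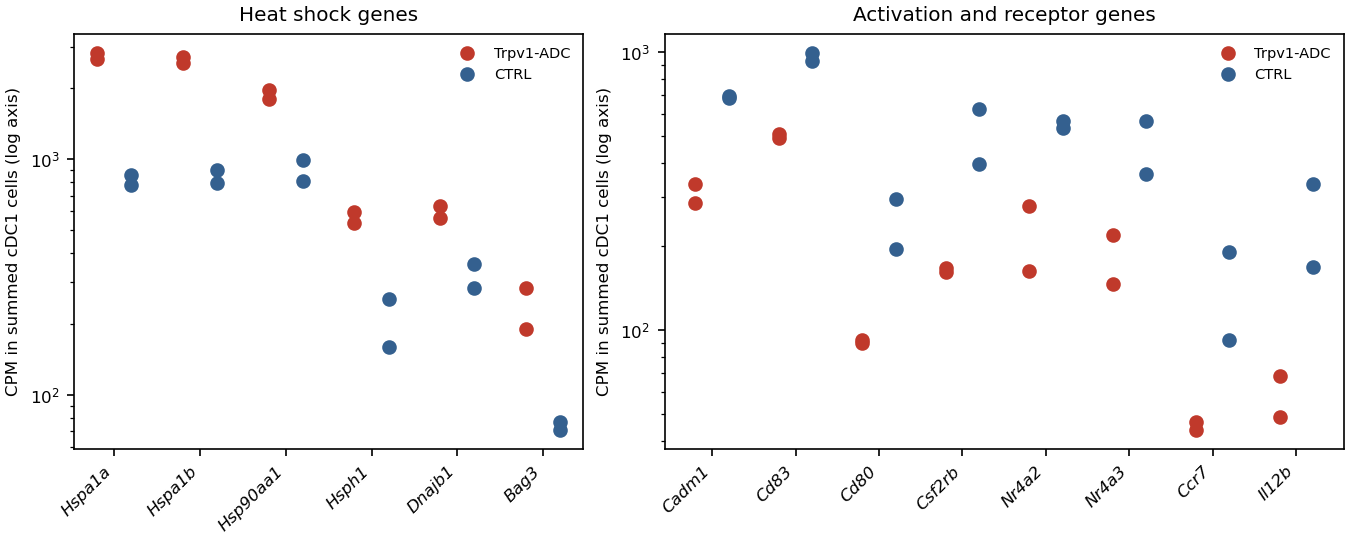
CPM in cDC1 (log axis) of heat shock genes (left panel) and of activation and receptor genes (right panel), 1 point a mouse, Trpv1-ADC left of CTRL within each gene. Hspa1a stood at 2831.4 and 2669.7 CPM in Trpv1-ADC mice and 856.8 and 779.8 CPM in CTRL mice, and Cadm1 at 334.8 and 287.4 CPM in Trpv1-ADC mice and 685 and 694.1 CPM in CTRL mice.

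Genes of maturation and secretion changed in part, and 1 or few cells set some of these values. Of 14 tested maturation and migration genes 2 fell and 0 rose, with a median of -0.20. Of 15 tested cytokines and chemokines 1 rose and 2 fell, with a median of -0.05. Il12b had 48.79 and 68.27 CPM in Trpv1-ADC mice, against 334.6 and 169.1 CPM in CTRL mice, and was called (log2 fold change -2.15, adjusted p = 0.0145 by edgeR). A single cell of CTRL mouse 1 held 185 of that mouse's 189 Il12b UMIs, and another held 83 of the 154 UMIs of CTRL mouse 2. Without the top cell of every mouse the levels were 15.14 and 37.73 CPM in Trpv1-ADC mice and 7.081 and 77.98 CPM in CTRL mice, and the groups overlapped. With mature cells left out its fold change was -0.70 (adjusted p = 0.911 by edgeR), and with at least 3 gate UMIs -1.25 (0.861).

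Ccr7, the receptor that guides mature dendritic cells to lymph nodes, behaved likewise. It had 43.74 and 46.71 CPM in Trpv1-ADC mice, against 191.2 and 92.26 CPM in CTRL mice (-1.68, adjusted p = 0.0375 by edgeR). Top cells held 77 of 108 Ccr7 UMIs in CTRL mouse 1 and 59 of 84 in CTRL mouse 2, and without every mouse's top cell the levels overlapped at 25.23 and 35.93 CPM in Trpv1-ADC mice and 54.87 and 27.46 CPM in CTRL mice. Without CTRL mouse 1 its fold change was -1.09 (adjusted p = 0.053 by edgeR). Cxcl16, a membrane-bound chemokine for Cxcr6+ T cells, was spread over more cells and stood at 99.26 and 97.01 CPM in Trpv1-ADC mice, against 224.8 and 163.6 CPM in CTRL mice (-1.04, adjusted p = 0.0494 by edgeR). Its adjusted p was 0.154 without Trpv1-ADC mouse 1, 0.0626 without Trpv1-ADC mouse 2 and 0.0916 without CTRL mouse 1, and 0.136 by DESeq2. Ccl4, an inflammatory chemokine, rose, with 747 and 722.2 CPM in Trpv1-ADC mice and 451.4 and 340.5 CPM in CTRL mice (0.83, adjusted p = 0.0375 by edgeR), and lost the call without Trpv1-ADC mouse 1 (0.81, 0.132) or 2 (0.82, 0.061). Cxcl9 stood at 166.6 and 296.4 CPM in Trpv1-ADC mice, against 272.6 and 547 CPM in CTRL mice, with overlap (-0.91, adjusted p = 0.525 by edgeR). A single cell held 101 of the 165 Cxcl9 UMIs of Trpv1-ADC mouse 2. Cxcl9 stayed without a call under 14 of the 17 alternatives run. Its log2 fold change was -1.42 without Trpv1-ADC mouse 2 and -1.31 without CTRL mouse 1.

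Immediate early genes moved in both directions. Of 24 tested, 2 rose and 2 fell, with a median of -0.36. Jun, a subunit of the AP-1 factor, had 720 and 655.7 CPM in Trpv1-ADC mice, against 269.1 and 208.7 CPM in CTRL mice (log2 fold change 1.47 ± 0.19 SE, adjusted p = 0.00269 by edgeR). Klf2, a zinc finger factor of quiescence and trafficking, had 716.7 and 745.6 CPM in Trpv1-ADC mice and 424.8 and 397.6 CPM in CTRL mice (0.76, adjusted p = 0.0375 by edgeR). Its adjusted p was 0.131 without Trpv1-ADC mouse 1 and 0.164 without Trpv1-ADC mouse 2. The orphan nuclear receptors went the other way. Nr4a2 had 163.2 and 278.5 CPM in Trpv1-ADC mice, against 566.4 and 533.8 CPM in CTRL mice (-1.38, adjusted p = 0.0108 by edgeR). Nr4a3 had 146.4 and 219.2 CPM in Trpv1-ADC mice and 562.9 and 365.7 CPM in CTRL mice (-1.40, adjusted p = 0.0187 by edgeR). Nr4a3 lost its call with mature cells left out (-1.01, adjusted p = 0.132) and with at least 3 gate UMIs (-1.11, adjusted p = 0.0539). In all 4 genes the groups were apart, as in all 95 called genes and in 41.6% of all genes tested.

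Targets of cyclic AMP signalling, the route through which many neuropeptide receptors act, lay mostly below 0, with calls in both directions. Of 18 tested genes 1 rose and 3 fell, and 14 had a log2 fold change below 0 and 4 above 0, with a median of -0.57. Cd83, Nr4a2 and Nr4a3, which the list shares with those above, were the 3 that fell. Areg, the epidermal growth factor receptor ligand amphiregulin, rose, with 60.56 and 59.29 CPM in Trpv1-ADC mice, against 7.081 and 8.786 CPM in CTRL mice (2.79 ± 0.42 SE, adjusted p = 0.00576 by edgeR). It was seen in 10 and 6 cells of Trpv1-ADC mice and in 4 and 4 cells of CTRL mice, and top cells held 17 of 36 and 14 of 33 UMIs in Trpv1-ADC mice.

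The window before Areg is shown because Areg alone of the 3 called genes of this list with a window, Areg, Nr4a2 and Nr4a3, held TGACGTCA, the full cyclic AMP response element, which also reads the same on both strands. It covers 250 bases on GRCm38.p6, chr5:91139349-91139598, plus strand, 5′ to 3′, with the match in capitals.
Areg: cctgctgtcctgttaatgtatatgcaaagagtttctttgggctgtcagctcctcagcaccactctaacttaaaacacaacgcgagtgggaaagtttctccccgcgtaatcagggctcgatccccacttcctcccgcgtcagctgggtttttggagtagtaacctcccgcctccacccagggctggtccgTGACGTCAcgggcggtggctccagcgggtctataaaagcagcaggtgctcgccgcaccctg
The match began 61 bases before the start site. The windows of Nr4a2 and Nr4a3 held none. Over all windows of this length 1.55% held a match, and 2 of the 13 tested genes of the list with a window did, Areg and Dusp1. Here too a gene counted if any of its windows matched, so the shares are unlike measures.

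Receptors for neuropeptides and neurotransmitters gave no call. Of 10 tested, 0 were called by edgeR, 0 by DESeq2, and 3 had a raw p under 0.05, with a median of -0.30. Htr7, a serotonin receptor that raises cyclic AMP, was well expressed at 329.7 and 305.4 CPM in Trpv1-ADC mice, against 417.8 and 525 CPM in CTRL mice (-0.64, adjusted p = 0.147 by edgeR). The groups did not overlap for Htr7, as for 41.6% of all genes. It stayed without a call under 15 of the 17 alternatives run, and its log2 fold change was -0.79 without CTRL mouse 1.

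Antigen presentation genes gave no call. Of 22 class I and cross-presentation genes 0 were called by edgeR or DESeq2 and 1 had a raw p under 0.05, with a median of -0.05. Of 13 tested class II genes 0 were called by either tool and 4 had a raw p under 0.05, with a median of -0.19. H2-Eb1 stood at 5676.2 and 5416.6 CPM in Trpv1-ADC mice, against 7094.7 and 6856.7 CPM in CTRL mice (-0.40, adjusted p = 0.052 by edgeR). H2-Aa stood at 5501.2 and 5190.3 CPM in Trpv1-ADC mice and 6703.5 and 6362.5 CPM in CTRL mice (-0.36, adjusted p = 0.0865 by edgeR). H2-Eb1 stayed without a call under 13 of the 17 alternatives run, and H2-Aa under 15. Without CTRL mouse 2 the log2 fold change was -0.43 for H2-Eb1 and -0.40 for H2-Aa. Cd74, the invariant chain, had a log2 fold change of -0.19 (adjusted p = 0.389 by edgeR). Genes for the uptake of dead cells gave 0 calls by edgeR and 1 by DESeq2 among 9 tested, with 3 at a raw p under 0.05.

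Of 12 tested type I interferon response genes 1 rose and 0 fell, with 10 above 0 and a median of 0.52. Ifi27l2a had 297.8 and 271.3 CPM in Trpv1-ADC mice, against 97.36 and 114.2 CPM in CTRL mice (1.35, adjusted p = 0.0076 by edgeR). Bst2, encoding tetherin, stood at 346.6 and 361.1 CPM in Trpv1-ADC mice and 175.2 and 195.5 CPM in CTRL mice (0.86, adjusted p = 0.052 by edgeR). Bst2 is also a surface marker of plasmacytoid dendritic cells, whose marker sum was higher in the same mice. Bst2 is itself 1 of the 7 genes in that sum, so the sum is no separate measure. The part of plasmacytoid RNA in the Bst2 values was not tested. Bst2 stayed without a call under 13 of the 17 alternatives run. Its log2 fold change was 0.79 without CTRL mouse 1 and 0.94 without CTRL mouse 2. Without the stromal-positive cells Ifi27l2a had a log2 fold change of 1.74 with an adjusted p of 0.113. The 9 tested interferon gamma response genes gave 0 calls by edgeR or DESeq2 and 2 at a raw p under 0.05, with a median of -0.18.

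Among the remaining lists, 0 genes were called by edgeR or DESeq2 in 6 tested genes of regulatory T cell induction (1 at a raw p under 0.05), 13 innate sensors and adaptors (5), and 7 circadian and glucocorticoid response genes (3). Their medians were -0.07, 0.06 and -0.41. In the circadian and glucocorticoid list, Sgk1 (-0.99, adjusted p = 0.085 by edgeR) and Bhlhe40 (-0.88, adjusted p = 0.0949 by edgeR) were not called. Each stayed without a call under 15 of the 17 alternatives run. Without CTRL mouse 2 the log2 fold change was -1.31 for Sgk1 and -1.19 for Bhlhe40. The 77 ribosomal protein genes gave 0 calls by edgeR or DESeq2 and 0 at a raw p under 0.05, with a median of -0.05. Of 18 tested cell cycle genes 2 rose and 0 fell, with a median of -0.06. Ube2c, which ubiquitinates cyclins at mitotic exit, had 55.52 and 107.8 CPM in Trpv1-ADC mice, against 7.081 and 12.08 CPM in CTRL mice (2.93, adjusted p = 0.00593 by edgeR). It was seen in 4 and 3 cells of Trpv1-ADC mice, of which 1 held 49 of 60 UMIs in mouse 2, and in 2 and 5 cells of CTRL mice. Ccnb2, a mitotic cyclin, had 30.28 and 37.73 CPM in Trpv1-ADC mice and 3.54 and 6.59 CPM in CTRL mice (2.55, adjusted p = 0.0341 by edgeR), with 15 of the 21 UMIs of Trpv1-ADC mouse 2 in 1 cell. Its adjusted p was 0.099 without Trpv1-ADC mouse 1 and 0.184 without Trpv1-ADC mouse 2.

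**Figure D5:**
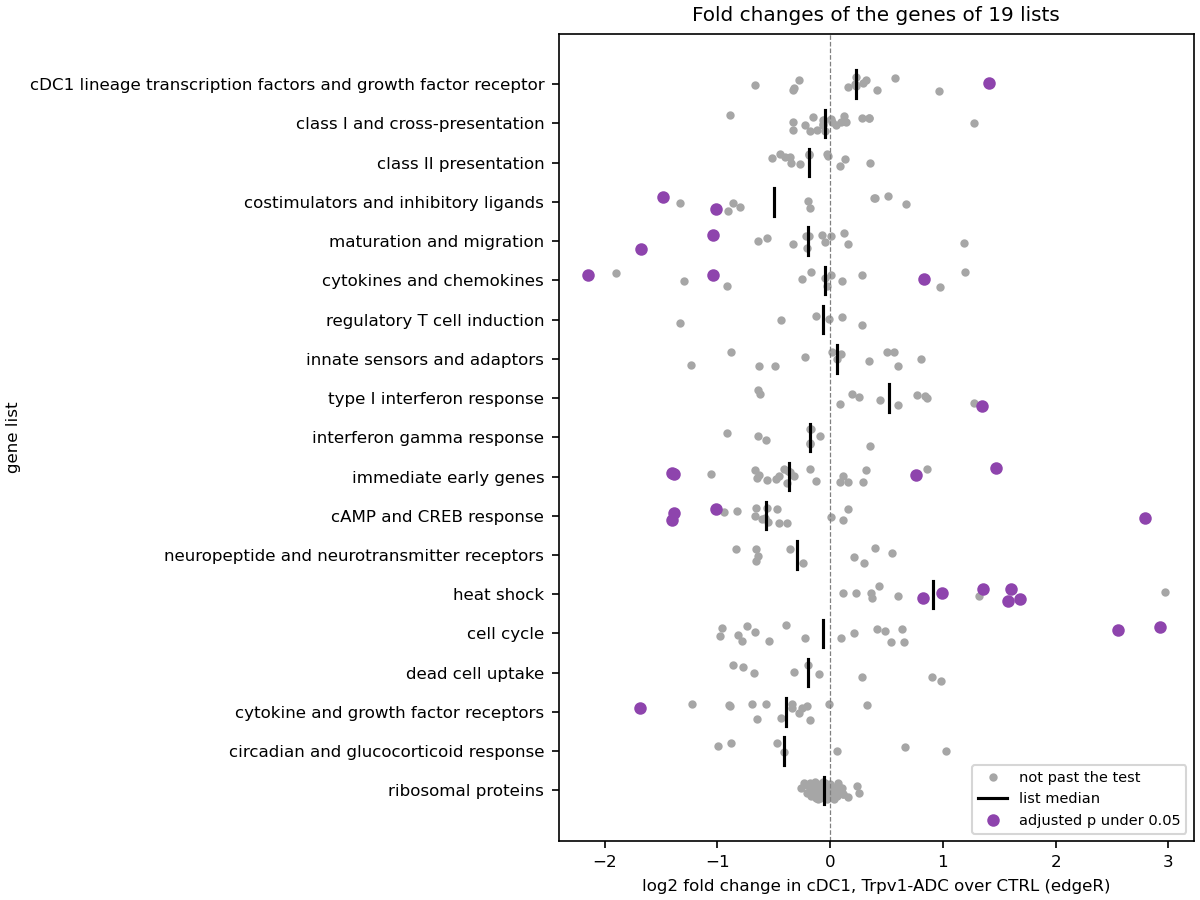
Log2 fold change, Trpv1-ADC over CTRL, of each tested gene in cDC1 (horizontal axis), with 1 row a list, coloured points for genes that passed an adjusted p of 0.05 and a bar for each list's median. The heat shock list had 6 of 14 genes called higher and a median of 0.91, against a median of -0.01 over all 6411 genes.

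The 12 largest falls among called genes were Rnf217, Adarb1, Gm16124, Ncoa7, Il12b, Scin, Tnfaip2, Csf2rb, Ccr7, Snx24, Gm17749 and Hepacam2. Ncoa7, a protein with an oxidation resistance domain, had 102.6 and 73.66 CPM in Trpv1-ADC mice, against 449.6 and 310.8 CPM in CTRL mice, and fell by 2.16 (edgeR, adjusted p = 0.00114). Scin, the actin-severing protein scinderin, had 60.56 and 39.52 CPM in Trpv1-ADC mice, against 191.2 and 161.5 CPM in CTRL mice, and fell by 1.87 (edgeR, adjusted p = 0.00459). Tnfaip2 had 53.83 and 86.23 CPM in Trpv1-ADC mice and 235.4 and 209.8 CPM in CTRL mice, and fell by 1.73 (edgeR, adjusted p = 0.00525). A single cell held 28 of the 48 Tnfaip2 UMIs of Trpv1-ADC mouse 2. Each of these 3 was seen in at least 17 cells of every CTRL mouse, and the groups were far apart. Groups did not overlap in any of the 95 called genes, nor in 41.6% of all genes tested. Gm16124, an unnamed gene model, was lower by 2.44 (edgeR, adjusted p = 0.000154), with single cells holding 95 of 176 and 107 of 283 UMIs in the CTRL mice. Rnf217 rested on 2 and 0 UMIs in Trpv1-ADC mice and 14 and 30 UMIs in CTRL mice, and Adarb1, an RNA-editing enzyme, on 2 and 3 UMIs in Trpv1-ADC mice against 22 and 24 in CTRL mice. Single cells held 19 of the 22 and 21 of the 24 Adarb1 UMIs of the CTRL mice, and without every mouse's top cell the levels were 0 and 1.80 CPM in Trpv1-ADC mice and 5.31 and 3.295 CPM in CTRL mice. Rnf217 lost its call without CTRL mouse 2 (-3.76, adjusted p = 0.5), and Adarb1 without Trpv1-ADC mouse 1 (-2.59, adjusted p = 0.0709) or CTRL mouse 1 (-2.61, adjusted p = 0.298). Hepacam2 (-1.35, adjusted p = 0.0782) and Gm17749 (-1.56, adjusted p = 0.0553) lost theirs without Trpv1-ADC mouse 1, and without CTRL mouse 1 (-1.06, adjusted p = 0.114 and -1.25, adjusted p = 0.128).

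The 12 largest rises were Rarres2, Tcf21, Sfrp1, Magi2, Ccl11, Id3, Cxcl12, Col4a1, Svep1, Postn, F5 and Gm15506, with log2 fold changes between 3.39 and 4.97. Most are genes of fibroblasts or blood vessels. For 11 of the 12, between 63.4% and 94.4% of their cDC1 UMIs lay in the 13 stromal-positive cells. Rarres2, encoding chemerin, had 85.8 and 61.08 CPM in Trpv1-ADC mice, against 3.54 and 1.098 CPM in CTRL mice, and 94.3% of its UMIs were in those cells. In Trpv1-ADC mouse 2 a single cell held 32 of 34 Rarres2 UMIs, 21 of 22 of Sfrp1, 16 of 17 of Ccl11, 17 of 17 of Cxcl12 and 15 of 15 of Svep1. The exception was Gm15506, with 75.7 and 131.1 CPM in Trpv1-ADC mice and 1.77 and 14.28 CPM in CTRL mice and 1.52% of its UMIs in those cells. In single cells, 29 of 45 and 52 of 73 Gm15506 UMIs of the Trpv1-ADC mice came from 1 cell a mouse, and its adjusted p by DESeq2 was 0.0902. Without Trpv1-ADC mouse 1, which held the most stromal RNA, 8 of the 12 lost their call: Tcf21, Ccl11, Id3, Cxcl12, Col4a1, Svep1, Postn and F5, with adjusted p between 0.0888 (Postn) and 0.67 (F5).

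With the 13 stromal-positive cells left out, 47 of 5935 tested genes were called, 16 higher and 31 lower. Of the original 95 calls, 42 were among them, 12 higher and 30 lower, and 19 of the 39 higher genes no longer had enough counts to be tested. Hspa1a, Hspa1b, Hsph1, Bag3, Hsp90aa1, Jun, Cadm1, Cd80, Cd83 and Csf2rb kept their calls. The share of stromal-gated cells among all cells had a log2 fold change of -0.68 (adjusted p = 0.153 by edgeR's quasi-likelihood test on cell numbers).

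The same contrast was set against cDC2-gated cells, the other conventional dendritic lineage. There were 39 and 29 such cells in Trpv1-ADC mice, against 61 and 44 in CTRL mice. Fitted alone, cDC2-gated cells gave 1 called gene of 5796 tested, Cxcl9, and 348 at a raw p under 0.05. The difference between the 2 contrasts was tested by an interaction term in edgeR with the mouse as a block. It was called for 24 of 7268 genes (0.33%), 17 more positive and 7 more negative in cDC1, and 573 had a raw p under 0.05. Leaving out 1 mouse at a time gave 66 calls without Trpv1-ADC mouse 1, 127 without Trpv1-ADC mouse 2, 46 without CTRL mouse 1 and 116 without CTRL mouse 2. Without stromal-positive cells in either lineage 1 was called, Cxcl9. The 6 called heat shock genes, Cadm1, Cd80, Cd83 and Csf2rb were not among the 24, so a difference between the lineages was not shown for them. Ncoa7 was among them: in cDC2-gated cells it stood at 64.07 and 43.11 CPM in Trpv1-ADC mice and 47.99 and 45.94 CPM in CTRL mice, and its interaction was -2.41 (edgeR, adjusted p = 0.0216). So was the small heat shock gene Hspb1 (2.48, adjusted p = 0.0216 by edgeR), at 205.2 and 55.69 CPM in Trpv1-ADC cDC1 and 19.47 and 13.18 CPM in CTRL cDC1. In the fit of cDC1 alone Hspb1 was not called (log2 fold change 2.97, adjusted p = 0.249 by edgeR).

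The interaction with the smallest p was that of Cxcl9. In cDC1 it was 166.6 and 296.4 CPM in Trpv1-ADC mice and 272.6 and 547 CPM in CTRL mice. In cDC2-gated cells it was 88.37 and 152.6 CPM in Trpv1-ADC mice, against 9.597 and 16.7 CPM in CTRL mice, a rise of 3.23 on the log2 scale (edgeR, adjusted p = 0.0126). Its interaction was -4.11 (SE 0.401; edgeR, adjusted p = 0.000381). The cDC2 values rested on 3 and 5 cells of Trpv1-ADC mice, in which the top cell held 38 of 40 and 26 of 46 UMIs, and on 2 and 3 cells of CTRL mice. Jun rose in cDC1 and stood at 232 and 281.9 CPM in Trpv1-ADC against 340.7 and 355 CPM in CTRL cDC2-gated cells, with an interaction of 1.86 (edgeR, adjusted p = 0.0216).

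In other gated classes, Cd83 was lower in both Trpv1-ADC mice in macrophages, monocytes and T-gated cells, and higher in both in B and plasma cells. The groups overlapped in cDC2-gated cells, other mature dendritic cells, NK and innate lymphoid cells and stromal cells. In monocytes Cd83 was 328.9 and 281 CPM in Trpv1-ADC mice, against 475.8 and 510.3 CPM in CTRL mice. Cd83 was 258.4 and 211.8 CPM in macrophages of Trpv1-ADC mice, against 650.4 and 434.9 CPM in those of CTRL mice. In B and plasma cells it was 1063.0 and 1146.7 CPM in Trpv1-ADC mice and 620.8 and 844.8 CPM in CTRL mice. Cadm1 was also lower in Trpv1-ADC macrophages, at 35.73 and 34.1 CPM, against 135.8 and 63.56 CPM in CTRL macrophages. These values carry no test, and differences between classes were not tested.

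Xcl1, the ligand of the receptor that defines cDC1, stood higher in NK and innate lymphoid cells than in T-gated cells per UMI, at 599.4 and 799.1 CPM in Trpv1-ADC mice, against 767.1 and 1222.4 CPM in CTRL mice. In T-gated cells it was 101.1 and 114.4 CPM in Trpv1-ADC mice and 148.3 and 202.7 CPM in CTRL mice. The more numerous T-gated cells held more Xcl1 UMIs in all, 2031 and 2822 in Trpv1-ADC mice and 3446 and 4019 in CTRL mice. The T cell groups were apart and the NK and innate lymphoid groups overlapped, and these values carry no test. Within cDC1 Xcl1 itself was called higher, on 20 and 17 UMIs in Trpv1-ADC mice against 2 and 3 in CTRL mice, and 59.5% of those UMIs were in the 13 stromal-positive cells. A single cell held 17 of the 20 UMIs of Trpv1-ADC mouse 1 and another 8 of the 17 of Trpv1-ADC mouse 2. Its adjusted p was 0.0207 by edgeR, and 0.249 without Trpv1-ADC mouse 1 and 0.0511 without Trpv1-ADC mouse 2. Xcl1 was named after its values were seen, as were the genes compared across gated classes.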

How the data were processed

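Per the labels, cells of 4 mice were tagged with hashtag antibodies and run together; the design text names 5′ chemistry and the extract protocol 3′ v3. Per the submitters' processing notes, Cell Ranger, Seurat and mm10 were used. The deposited tables hold unnormalized UMI counts of genes in barcodes and counts of hashtags in the same barcodes. All 23063 barcodes are in both. Scripts used Python 3.11.15, scanpy 1.11.5 for Scrublet (expected rate 0.2) and R 4.3.3.

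Members and gene lists were chosen with earlier results of these data known. Counts were summed per mouse. Genes passing filterByExpr were fitted with edgeR 4.0.16 (TMM factors, robust quasi-likelihood, Benjamini-Hochberg threshold 0.05), with DESeq2 1.42.0 as an alternative. Standard errors are the fold change over the root of F. Single shares were compared by exact permutation over mice. The fits were run on data simulated with the same dispersion for every gene. That setting is simpler than these data, so the run checked the code only. Xcr1, Clec9a and the other gate genes were not tested. Doublets were kept in the main result, and Scrublet marked 17 of the 163 cDC1 (6 and 5 in Trpv1-ADC, 4 and 2 in CTRL mice). Named genes are the 12 largest rises and 12 largest falls among called genes whose groups did not overlap, called members of the lists, up to 4 members a list by smallest p, markers, and the 6 interaction genes with the smallest p. Fits without single mice, a replicate block, other gates and filters were alternatives. Promoter sequences are RefSeq's, on GRCm38.p6, matched by symbol.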

Additional observations from a re-analysis of the deposited data

Results flagged for a closer look

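A total of 6 genes stand out because their Trpv1-ADC to CTRL difference in cDC1 departed from that in cDC2-gated cells by edgeR's interaction term. For Cxcl9 the departure was -4.11 on the log2 scale (adjusted p = 0.000381), with the levels and the few cells behind them given above, and it was the 1 gene still called without stromal-positive cells. For Jun it was 1.86 (adjusted p = 0.0216), and 1.70 with an adjusted p of 0.061 without those cells. For A930015D03Rik it was -2.31 (adjusted p = 0.0216): it stood at 258.5 and 421.2 CPM in Trpv1-ADC and 47.99 and 131.5 CPM in CTRL cDC2-gated cells, and at 40.38 and 109.6 CPM in Trpv1-ADC and 46.02 and 124.1 CPM in CTRL cDC1.

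Sparc (5.89, adjusted p = 0.00423), Igfbp7 (5.42, adjusted p = 0.0216) and Selp (9.64, adjusted p = 0.0216) are genes of stroma and vessels. Selp was at 0 UMIs in both CTRL mice and at 88 and 11 UMIs in Trpv1-ADC mice. Its fitted value is no bound. Without Trpv1-ADC mouse 1, Selp had an interaction of 7.55 (adjusted p = 0.115) and Igfbp7 of 3.23 (adjusted p = 0.136), and neither was called. Stromal-positive cells numbered 0 and 0 in Trpv1-ADC and 4 and 0 in CTRL cDC2-gated cells, against 5 and 3 in Trpv1-ADC and 2 and 3 in CTRL cDC1.

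The hashtag table also held counts of 11 tags that the labels name for no mouse, 22446 in all, or 0.127% of all tag counts, with at most 96 in a barcode.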

How the results depend on the processing

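Of 95 called genes, the count moved to 355 without a low-count filter, 54 without Scrublet doublets, 52 with at least 3 gate UMIs, 13 with the Cd3 and Cd79a limits dropped, 47 without stromal-positive cells, and 99 to 333 with 1 mouse left out. DESeq2 gave 80. In all settings but the dropped limits, none of the 95 genes that had a result changed sign. Of the 95, 84 had a result by DESeq2, 77 without Scrublet doublets and 76 without stromal-positive cells. With the limits dropped 5 changed sign, among them Adarb1 (0.062), Sfrp1 (-0.053), Ccl11 (-0.022) and Postn (-0.073). Settings without those limits or stromal-positive cells were chosen after seeing the data.

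The labels do not pair the replicate numbers, and deviations of same-numbered mice correlated at 0.0276; a fit with the replicate number as a block gave 61 calls, 44 of them among the 95, from a fit with fewer degrees of freedom.

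The 24 interaction genes became 2 with DESeq2, 107 without a filter, 1 without stromal-positive cells and 46 to 127 with 1 mouse left out. The causes were not tested.

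Differences in the shares and in UMIs per cell were within the spread between mice, and all but that in the share of kept cells changed sign under some settings. With the limits dropped they were -25.3 UMIs, -0.733 points for mature and 1.37 points for Itgae cells; thinned to 2000 UMIs, -1.37 points for mature, 1.95 for cycling and 1.72 for Itgae cells; without stromal-positive cells, -3.5 UMIs. With 1 mouse left out, they ran from -0.445 to -0.0463 points for the share of kept cells, -4.12 to 11.98 for that of conventional dendritic cells, -248 to 1223 UMIs, -0.499 to 3.10 points for mature, -9.23 to 3.16 for cycling and -5.45 to -0.603 for Itgae cells. Calls rest on 34 to 54 cells a mouse.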

Other observations

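Several genes were concentrated in few cDC1. In 155 cDC1 thinned to 5000 UMIs, F11r, encoding a junctional adhesion molecule, was seen in 17.4% of cells with up to 78 UMIs in 1 cell, a ratio of variance to mean of 44.8. Txndc16 was seen in 42.6% of cells with up to 67 UMIs (ratio 35.5), Dnajb14 in 25.2% with up to 51 (33.9), Plxdc1 in 15.5% with up to 51 (30.6) and Med1 in 20.6% with up to 55 (33.4). The median ratio over 1544 genes was 1.42. Cd8a, which many lymphoid cDC1 carry, had a UMI in 56 of the 163 cDC1, in 3 of 173 cDC2-gated cells and in 6 of 367 macrophages.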
